A study of Schizosaccharomyces pombe with 6 samples.

Results

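The phosphate acquisition genes of the fission yeast *Schizosaccharomyces pombe* were followed through an RNAseq series on heat stress and its chaperones. They numbered 4 of the 7008 genes listed: *pho1* (SPBP4G3.02), *pho84* (SPBC8E4.01c), *tgp1* (SPBC1271.09) and *pho7* (SPBC27B12.11c). They were taken by gene identifier, and *pho84* was selected on its low value in heat-stressed cells, 17.0 FPKM against 245 FPKM in unstressed wild type cells. For *pho84* this ratio therefore describes how the gene was chosen. It enters some values below, and no conclusion is drawn from it. FPKM, the unit of all levels, are fragments per kilobase of transcript, scaled to the mapped fragments of a library.

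The series asked how gene expression changes when the Hsp70-Hsp40 chaperones that restrain the heat shock transcription factor Hsf1 are lost, in comparison with heat and with excess Hsf1. Polyadenylated RNA was sequenced from 6 cultures with 1 library per condition, so no difference below has a replicate check and no test was made. Heat-stressed wild type cells were grown in rich YES medium at 24°C before 15 minutes at 36°C. Cells lacking the Hsp40 gene *mas5* (*mas5Δ*), cells lacking the Hsp70 gene *ssa2* (*ssa2Δ*) and unstressed wild type cells were kept at 24°C in the same medium, which the methods call YE. The *nmt1:hsf1* cells, in which *hsf1* stands under the *nmt1* promoter that thiamine represses, and their wild type partner were grown at 24°C in minimal medium without thiamine, the *nmt1:hsf1* cells for 20 hours. Each of the 4 deposited tables pairs a heat-stressed or mutant library with its wild type library, and the heat, *mas5Δ* and *ssa2Δ* tables have 1 wild type library in common, from rich medium. The wild type library of minimal medium was also set against that of rich medium, across tables that were normalized separately.

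The labels were checked on the altered genes. The level of *mas5* was 36.3 FPKM in *mas5Δ* cells and 470 FPKM in wild type cells, although its locus is listed with 4 genes. *ssa2* had 55.0 FPKM in *ssa2Δ* cells and 2960 FPKM in wild type cells. *hsf1*, listed in a locus with 3 genes, had 922 FPKM in *nmt1:hsf1* cells and 93.4 FPKM in wild type cells. The *nmt1* gene itself is not altered in these strains and is listed in a locus with 5 genes. It had 5778 FPKM in *nmt1:hsf1* cells and 24273 FPKM in wild type cells. The tables scale their common wild type library differently: relative to the heat table, its values are 1.13-fold higher beside *mas5Δ* and 1.02-fold higher beside *ssa2Δ*, by a factor common to the genes. A ratio was therefore taken within a table wherever both libraries stood in it. The depth per library is unknown.

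When phosphate runs short, fission yeast cells raise the secreted acid phosphatase Pho1, which frees phosphate from organic esters outside the cell, the plasma membrane phosphate transporter Pho84 and the glycerophosphodiester transporter Tgp1. The zinc finger transcription factor Pho7 binds their promoters and is needed for this response. When phosphate is plentiful the 3 genes are repressed by transcription of long non-coding RNAs (lncRNAs) that start upstream and run through their promoters: *prt2* for *pho84*, nc-pho1 (also called *prt*) for *pho1* and nc-tgp1 for *tgp1*. Inositol pyrophosphates and the machinery that terminates these lncRNAs set how far that transcription runs.

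The promoters are shown because *pho1* and *tgp1* had matches to the motif of Pho7 in the 250 bases before the start, where *pho84* and *pho7* had none. The *pho7* promoter is not printed, and that of *pho842*, a gene outside the set followed here, is. The motif searched was TCG, any base at 4 positions, TT, any base at 1 position and AA, on both strands, and its matches are in capitals. The sequences are the 250 bases before each RefSeq gene start in assembly ASM294v3, written 5′ to 3′ in the direction of the gene.
pho1, chrII:4447256-4447505, plus strand: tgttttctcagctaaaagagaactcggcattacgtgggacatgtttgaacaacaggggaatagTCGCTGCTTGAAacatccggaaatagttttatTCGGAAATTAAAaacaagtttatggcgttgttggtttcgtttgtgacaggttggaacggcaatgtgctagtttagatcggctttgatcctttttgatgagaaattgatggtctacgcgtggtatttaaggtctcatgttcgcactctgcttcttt
tgp1, chrII:352412-352661, minus strand: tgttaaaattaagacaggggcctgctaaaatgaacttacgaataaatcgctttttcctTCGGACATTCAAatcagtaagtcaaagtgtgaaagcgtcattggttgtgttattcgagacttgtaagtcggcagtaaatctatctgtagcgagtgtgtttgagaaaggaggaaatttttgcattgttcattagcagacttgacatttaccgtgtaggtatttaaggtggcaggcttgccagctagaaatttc
pho84, chrII:4443851-4444100, plus strand: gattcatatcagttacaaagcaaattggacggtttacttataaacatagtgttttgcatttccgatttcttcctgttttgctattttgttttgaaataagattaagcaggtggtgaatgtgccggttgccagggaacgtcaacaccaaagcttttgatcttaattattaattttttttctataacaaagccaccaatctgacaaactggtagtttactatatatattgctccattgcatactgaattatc
pho842, chrI:4362218-4362467, plus strand: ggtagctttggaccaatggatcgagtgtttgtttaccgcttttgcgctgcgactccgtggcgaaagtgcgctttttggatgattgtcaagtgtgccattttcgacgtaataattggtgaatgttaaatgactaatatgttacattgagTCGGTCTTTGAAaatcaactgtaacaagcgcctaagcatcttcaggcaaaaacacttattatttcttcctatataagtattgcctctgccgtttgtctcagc
The *pho1* promoter held 2 matches, at -187 and -155 from the start, and the *tgp1* promoter held 1 at -192. The promoter of *pho842*, a relative of *pho84* described below, held 1 at -102. The *pho84* promoter held none in these bases, but 3 lay further upstream, at -988, -724 and -673. No match lay within 1000 bases before *pho7*, and 1 lay before the lncRNA nc-pho1, at -313 from its start. Over 5113 promoters of 300 bases (250 before to 50 after the start), 6.65% held a match, and over windows reaching 1000 bases upstream 21.4% did. Of 14 phosphate handling genes 3 held one in the short window (*pho1*, *tgp1* and *pho842*) and 5 in the long one. Whether the motif was first derived from the *pho1* and *tgp1* promoters was not examined. If it was, their matches were given in advance, so nothing is read from these counts beside the shares of all promoters. A match is only a run of letters and does not show that Pho7 binds there.

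Another search was for GAANNTTC, a pair of inverted heat shock element units, which reads the same on both strands. One match lay in the 250 bases before *tgp1*, at -8, and none in those before *pho1*, *pho84* or *pho7*. This motif was present in 11.1% of promoters of 300 bases. Windows reaching 1000 bases upstream held it in 35.6% of promoters. In these, *pho1* had a match at -543, and *pho84* and *pho7* had none. The letters TATAAA occurred in 48.1% of promoters on either strand and were found before *pho84*, at -212.

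*pho84* and *pho1* are neighbours on the plus strand of chromosome II. The deposited tables give loci rather than transcripts, and these decide what a level counts. RefSeq places *pho1* at chrII:4447506-4449053 and nc-pho1 at chrII:4446359-4448918, so the lncRNA starts 1147 bases before *pho1* and 159 bases after the end of *pho84*. The deposited *pho1* locus, 4446373 to 4449053, spans 2681 bases, of which 1133 lie before the RefSeq start of *pho1* and 2546 lie inside nc-pho1. That lncRNA is not listed as a gene of its own, so *pho1* mRNA and nc-pho1 cannot be told apart in these values.

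*pho84* (chrII:4444101-4446200) shares its deposited locus, 4442574 to 4446200, with SPBC8E4.02c, an older name of *prt2*. RefSeq starts *prt2* 1559 bases before *pho84*, and 1870 bases of *pho84* lie inside it, so a read of these bases may come from either transcript. On the minus strand, *tgp1* (chrII:350310-352411) had a deposited locus of 1678 bases that overlaps nc-tgp1 by 35 bases, and nc-tgp1 is not listed. *pho7* (chrII:1345112-1347974, minus strand) stood alone in its locus.

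**Figure D1:**
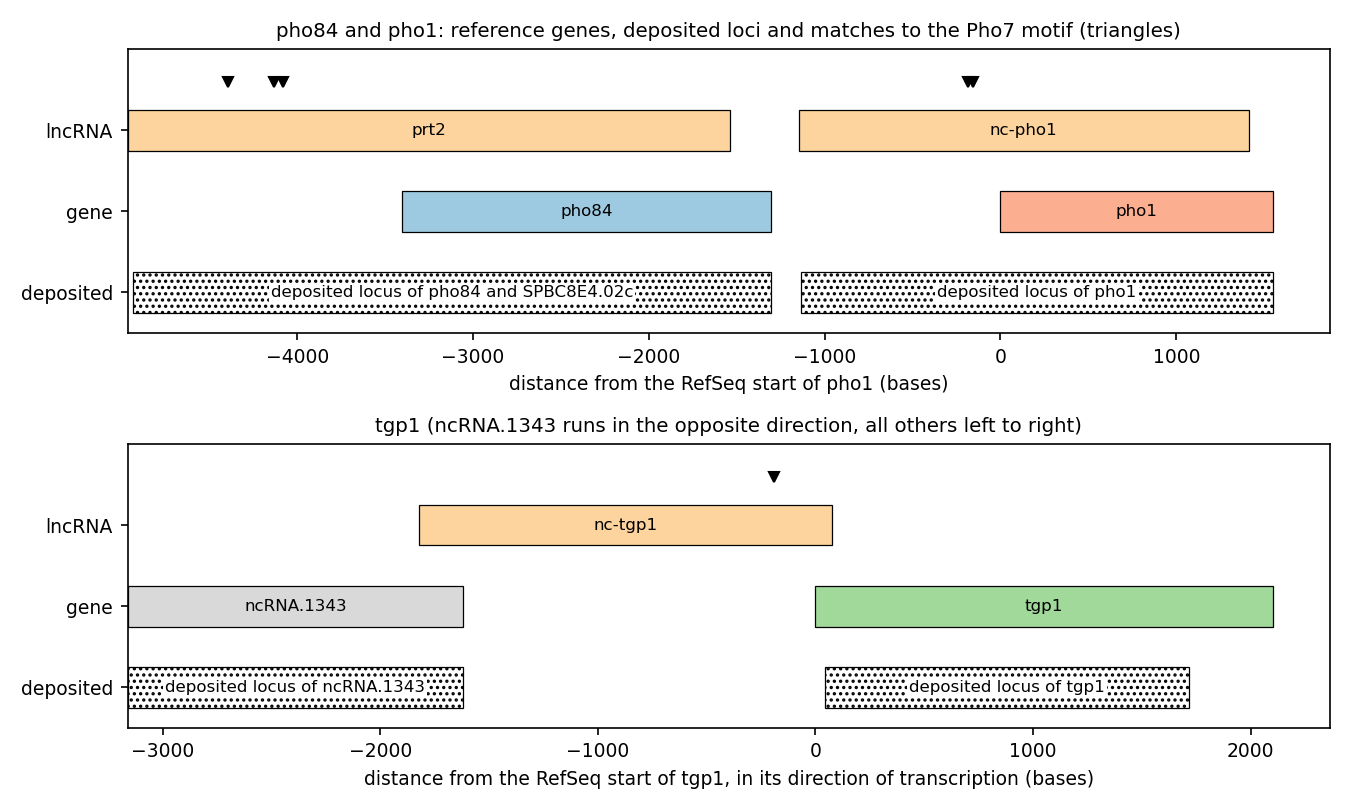
The maps show the *pho84* and *pho1* locus (top) and the *tgp1* locus (bottom), with distance from the RefSeq start of *pho1* or *tgp1* in bases on the x axis; solid bars are RefSeq genes and lncRNAs, dotted bars the deposited loci, and triangles matches to the Pho7 motif in the 1000 bases before *pho84*, *pho1* or *tgp1*. The deposited *pho1* locus reaches 1133 bases upstream of the gene and lies almost wholly under nc-pho1, while the 3 matches upstream of *pho84* fall inside *prt2*.

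The acid phosphatase gene *pho1* had the widest range of the 4 genes. Its level was 41.5 FPKM in heat-stressed cells, 644 FPKM in *mas5Δ* cells and 46.4 FPKM in *ssa2Δ* cells, against 114, 128 and 116 FPKM for the shared wild type library in those tables. In minimal medium it was 58.8 FPKM in *nmt1:hsf1* cells and 1609 FPKM in wild type cells. Wild type cells in minimal medium and *mas5Δ* cells thus stood high, and heat-stressed, *ssa2Δ* and *nmt1:hsf1* cells were low, all below the wild type level of rich medium.

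On the log2 scale *pho1* differed by 2.33 in *mas5Δ* cells, a 5.01-fold higher level, and 39 of 5186 genes had a higher ratio. Here and below such ranks count genes that averaged at least 10 FPKM over both libraries. In *ssa2Δ* cells the log2 ratio was -1.32, with 48 of 5156 genes lower. The chaperone deletions therefore stood on opposite sides of their wild type library for this gene. In heat the log2 ratio of *pho1* was -1.46.

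*pho1* was 27.4-fold lower in *nmt1:hsf1* cells than in wild type cells of the same medium, a log2 ratio of -4.77 with 11 of 5426 genes lower. Between media it was 14.1-fold higher in minimal medium than in rich medium, a log2 ratio of 3.82 with 13 of 5051 genes higher. These ratios share the wild type library of minimal medium, so a high value there enters both. Set against the wild type library of rich medium instead, *nmt1:hsf1* cells had a *pho1* log2 ratio of -0.96.

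The transporter gene *pho84* had 510 FPKM in *mas5Δ* cells and 112 FPKM in *ssa2Δ* cells, against 275 and 248 FPKM in wild type cells of the same tables. It had 53.2 FPKM in *nmt1:hsf1* cells and 510 FPKM in wild type cells of minimal medium. Heat-stressed cells, by the choice of the gene, had the lowest level of the 6 conditions, while *mas5Δ* cells and wild type cells in minimal medium were the high ones, on the separate scales of their tables.

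The log2 ratio of *pho84* was 0.89 in *mas5Δ* cells, short of 2-fold, and -1.15 in *ssa2Δ* cells, where 73 of 5156 genes were lower. It was -3.26 in *nmt1:hsf1* cells, with 42 of 5426 genes lower. Between minimal and rich medium it was 1.06, which is just past 2-fold and was 0.93 after subtraction of the median of all genes. In heat, the comparison in which it was chosen, its log2 ratio was -3.85.

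The glycerophosphodiester transporter gene *tgp1* was expressed at a low level in rich medium. It had 7.38 FPKM in heat-stressed cells, 6.56 FPKM in *mas5Δ* cells and 18.5 FPKM in *ssa2Δ* cells, against 14.5, 16.4 and 14.8 FPKM for their wild type library. In minimal medium it had 85.9 FPKM in *nmt1:hsf1* cells and 122 FPKM in wild type cells. Both libraries of minimal medium thus lay above all libraries of rich medium, which neither *pho1* nor *pho84* showed.

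*tgp1* was 8.41-fold higher in wild type cells of minimal medium than of rich medium, a log2 ratio of 3.07 with 29 of 5051 genes higher. In *mas5Δ* cells its log2 ratio was -1.32, with 73 of 5186 genes lower, and in *ssa2Δ* cells it was 0.33, so the signs were those of *pho1* and *pho84* turned round. Heat gave -0.98, a 1.97-fold lower level that is just short of 2-fold. In *nmt1:hsf1* cells the log2 ratio was -0.51, and against the wild type library of rich medium it was 2.56, the opposite sign.

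The transcription factor gene *pho7* had 24.6 FPKM in heat-stressed cells, 29.9 FPKM in *mas5Δ* cells and 32.7 FPKM in *ssa2Δ* cells, against 35.6, 40.02 and 36.1 FPKM for their wild type library. It had 21.7 FPKM in *nmt1:hsf1* cells and 29.3 FPKM in wild type cells of minimal medium. Its level was lower than in wild type cells in each of these 4 pairs, by less than 2-fold. The log2 ratios were -0.53 in heat, -0.42 in *mas5Δ* cells, -0.14 in *ssa2Δ* cells, -0.43 in *nmt1:hsf1* cells and -0.28 between minimal and rich medium. The mRNA level of *pho7* therefore varied far less than those of *pho1*, *pho84* and *tgp1*, for *pho84* also without its heat value. Nothing was measured of the Pho7 protein.

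**Figure D2:**
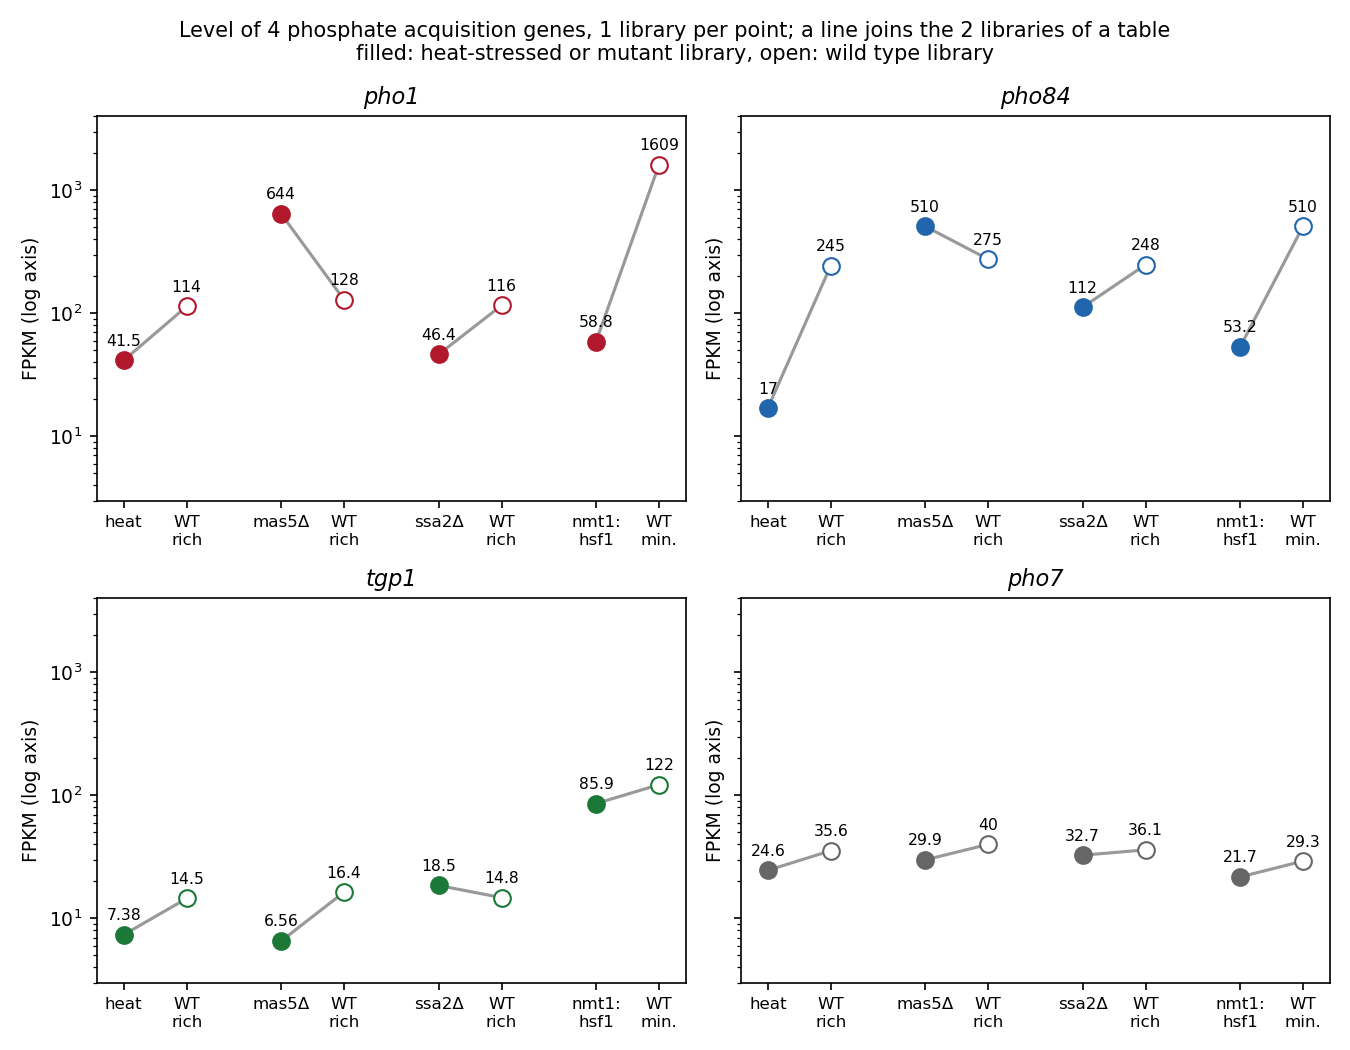
Each panel plots the FPKM of 1 gene on a log axis, with 1 point per library; filled points are heat-stressed or mutant libraries, open points their wild type library, and lines join libraries of 1 table (WT rich is the same library in 3 tables). *pho1* ranges between 41.5 and 1609 FPKM, while *pho7* stays between 21.7 and 40.02 FPKM.

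Across the 4 genes, 2 were past 2-fold lower in heat (*pho84* and *pho1*) and 0 higher, where 10.3% of all 6426 genes with a ratio were past 2-fold lower, 14.1% higher and 24.4% in either direction. Since *pho84* was chosen in this comparison, nothing is read from that count. In *mas5Δ* cells 1 was higher (*pho1*) and 1 lower (*tgp1*), beside 7.25% of genes higher, 5.15% lower and 12.4% in either direction. In *ssa2Δ* cells 2 were lower (*pho1* and *pho84*) and 0 higher, beside 4.14% lower, 10.9% higher and 15% in either direction.

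In *nmt1:hsf1* cells 2 were lower (*pho1* and *pho84*) and 0 higher, beside 16.7% of genes lower, 27.1% higher and 43.8% in either direction. In minimal over rich medium 3 were higher (*pho1*, *pho84* and *tgp1*) and 0 lower, beside 9.52% of genes higher, 6.47% lower and 16% in either direction. With 4 genes, such counts describe these genes only.

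**Figure D3:**
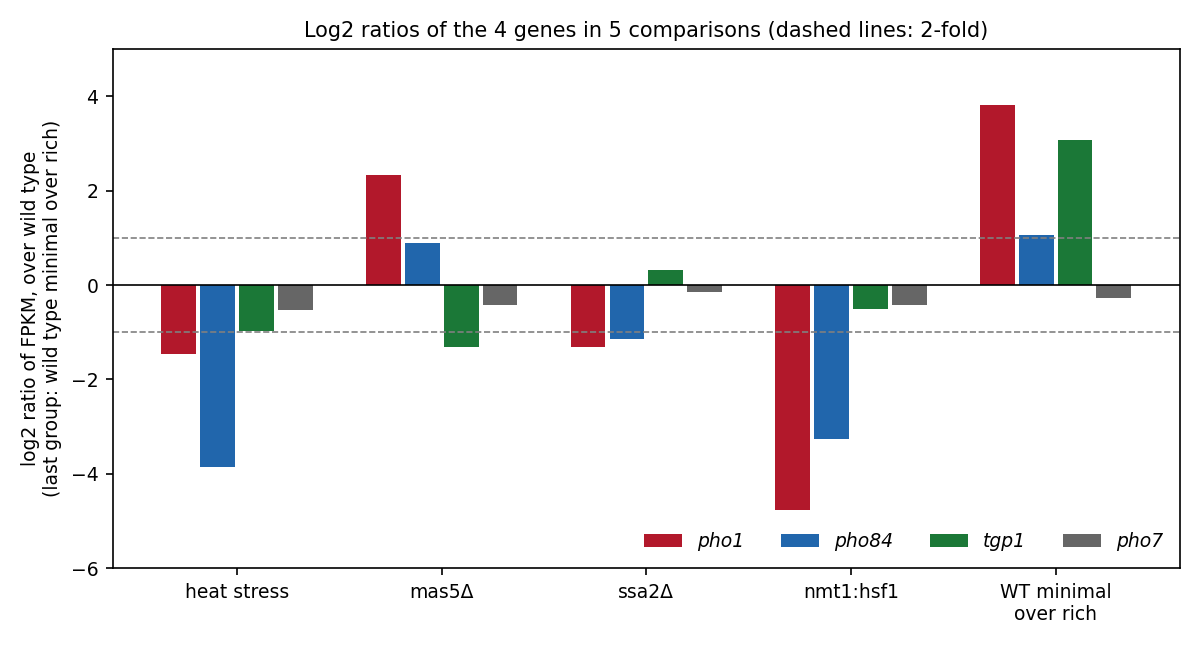
Bars give the log2 ratio of FPKM of *pho1*, *pho84*, *tgp1* and *pho7* in 5 comparisons, each of 1 library against 1; dashed lines mark 2-fold. *pho1* stands at 2.33 in *mas5Δ* cells and -1.32 in *ssa2Δ* cells, *tgp1* at -1.32 and 0.33, and the bars of *pho7* all lie between -0.53 and -0.14.

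Levels within 1 library do not depend on how a table was scaled. The level of *pho1* over that of *pho84* was 1.26 in *mas5Δ* cells and 0.413 in *ssa2Δ* cells, against 0.467 in their wild type library. It was 1.11 in *nmt1:hsf1* cells and 3.15 in wild type cells of minimal medium. The proportion of these neighbouring genes was nearer to that of wild type cells in *ssa2Δ* cells than in *mas5Δ* cells. In heat-stressed cells it was 2.45, which rests on the level by which *pho84* was chosen. The level of *tgp1* over that of *pho84* was 0.0129 in *mas5Δ* cells and 0.0595 in their wild type library, and 1.61 in *nmt1:hsf1* cells and 0.240 in their wild type library. *tgp1* was above *pho84* in *nmt1:hsf1* cells and in no other library. Such ratios between genes use the lengths of the authors' gene models, and that of *pho1* includes upstream bases.

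The genes around them were read from the same tables. *prt2*, the lncRNA that runs through the *pho84* promoter, had 21.1 FPKM in heat-stressed cells, 54.7 FPKM in *mas5Δ* cells and 74.5 FPKM in *ssa2Δ* cells, against 41.0, 46.1 and 41.6 FPKM for their wild type library. In minimal medium it had 54.1 FPKM in *nmt1:hsf1* cells and 58.8 FPKM in wild type cells. Its log2 ratio of 0.84 in *ssa2Δ* cells stood beside -1.15 for *pho84*, the only comparison in which their signs were opposite. *prt2* and *pho84* were at 0.25 and 0.89 in *mas5Δ* cells and at -0.12 and -3.26 in *nmt1:hsf1* cells. Between minimal and rich medium they were at 0.52 and 1.06. In heat *prt2* was at -0.96, and *pho84* was chosen for its low level there. How reads were divided within the shared locus was not tested.

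Upstream of *tgp1*, ncRNA.1343 starts within nc-tgp1 and runs the other way, sharing 204 bases with it. It had 21.4 FPKM in heat-stressed cells, 38.8 FPKM in *mas5Δ* cells and 44.8 FPKM in *ssa2Δ* cells, against 46.4, 52.3 and 47.2 FPKM for their wild type library. In minimal medium it had 5.48 FPKM in *nmt1:hsf1* cells and 13.0 FPKM in wild type cells. Between minimal and rich medium its log2 ratio was -1.84, where *tgp1* was at 3.07. In heat both were lower, at -1.12 for ncRNA.1343.

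The other flanking genes moved apart from the members in places. The extender of lifespan gene *ecl3*, before *prt2*, had log2 ratios of 0.23 in heat, 0.84 in *mas5Δ* cells, 1.29 in *ssa2Δ* cells, 0.19 in *nmt1:hsf1* cells and 2.23 between minimal and rich medium. SPBC1271.10c, which lies beyond the end of *tgp1*, ranged between -0.94 and -0.004. SPNCRNA.446, beyond *pho1*, was under 1 FPKM in all libraries. *tom7* and *cbp4*, on either side of *pho7*, ranged between -0.73 and 0.15 and between 0.27 and 0.79.

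A wider list of phosphate handling genes held 16 symbols, of which 14 were listed, among them *pho1*, *pho84* and *tgp1*. It was written from textbook knowledge, with phosphatases, phosphate transporters, subunits of the vacuolar polyphosphate polymerase and glycerophosphodiester phosphodiesterases, and 7 of its genes shared a locus with another gene. In minimal over rich medium 7 of 14 were past 2-fold higher and 0 lower, beside 9.52% of all genes higher and 6.47% lower. Of the 14, 13 were above 0, and the median log2 ratio was 0.99, beside 0.13 for all genes. Without the members, 4 of 11 were higher, with a median of 0.62. These 4 were *pho4*, a thiamine-repressible acid phosphatase, at 2.90, the phosphodiesterase family gene *pgc1* at 1.79, the polymerase subunit gene *nrf1* (the fission yeast Vtc1) at 1.36 and the transporter gene *pho842* at 1.31. The phosphate content of the media is not given, and thiamine, phosphate and other components cannot be told apart.

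In *nmt1:hsf1* cells 7 of the 14 were past 2-fold lower and 0 higher, beside 16.7% of all genes lower and 27.1% higher. All 14 had a ratio below 0, and the median was -0.94, beside 0.09 for all genes. Without the members 5 of 11 were lower, all 11 were below 0 and the median was -0.84. *nrf1* had 388 FPKM in *nmt1:hsf1* cells and 2582 FPKM in wild type cells, a log2 ratio of -2.73. *pho842* had 33.0 FPKM in *nmt1:hsf1* cells and 208 FPKM in wild type cells, a log2 ratio of -2.66. The other genes past 2-fold were *vtc4* at -1.49, *pho4* at -1.27 and *vtc2* at -1.05, and the exopolyphosphatase gene *ppx1* had the highest ratio, -0.11. The *nmt1:hsf1* and medium comparisons share the wild type library of minimal medium, in which most of these genes were above their rich medium level.

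In heat 2 of the 14 were past 2-fold higher and 3 lower, beside 14.1% of all genes higher and 10.3% lower. The count of higher genes is near that share. The median was -0.42, beside 0.01 for all genes. Without the members, among them *pho84* that was chosen in this comparison, 2 of 11 were higher and 1 lower and the median was 0.17, on the other side of 0. *pgc1* had 202 FPKM in heat-stressed cells and 45.7 FPKM in wild type cells, a log2 ratio of 2.14, and the vacuolar alkaline phosphatase gene *pho8* was at 1.21. The acid phosphatase gene *pho4* was lower, at -1.59, as *pho1* was. The list thus held genes on both sides of wild type in heat.

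In *mas5Δ* cells *pho1* was the only gene of the 14 past 2-fold higher and *tgp1* the only one past 2-fold lower. Of all genes 7.25% were higher and 5.15% lower, so both counts are near these shares. The median was -0.21, beside 0.04 for all genes. Apart from *pho84*, the other listed genes ranged between -0.82 for *vtc4*, whose budding yeast counterpart is the catalytic subunit of the polymerase, and 0.71 for *pgc1*. In *ssa2Δ* cells 1 gene was past 2-fold higher, *pgc1* at 1.01, and 3 were lower, *pho842* and the members *pho1* and *pho84*. Of all genes 10.9% were higher and 4.14% lower. The median was 0.01, beside 0.05 for all genes. Centring or a pseudocount of 1 FPKM brought *pgc1* within 2-fold and left 3 genes past it. Without the members 1 of 11 was higher and 1 lower, and the median was 0.04. *pho842* was the lowest, with 19.6 FPKM in *ssa2Δ* cells and 85.1 FPKM in wild type cells, a log2 ratio of -2.12. *pho843*, a further transporter of this family, was at 0.31, and *pho84*, *pho842* and *pho843* thus differed among themselves in *ssa2Δ* cells.

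**Figure D4:**
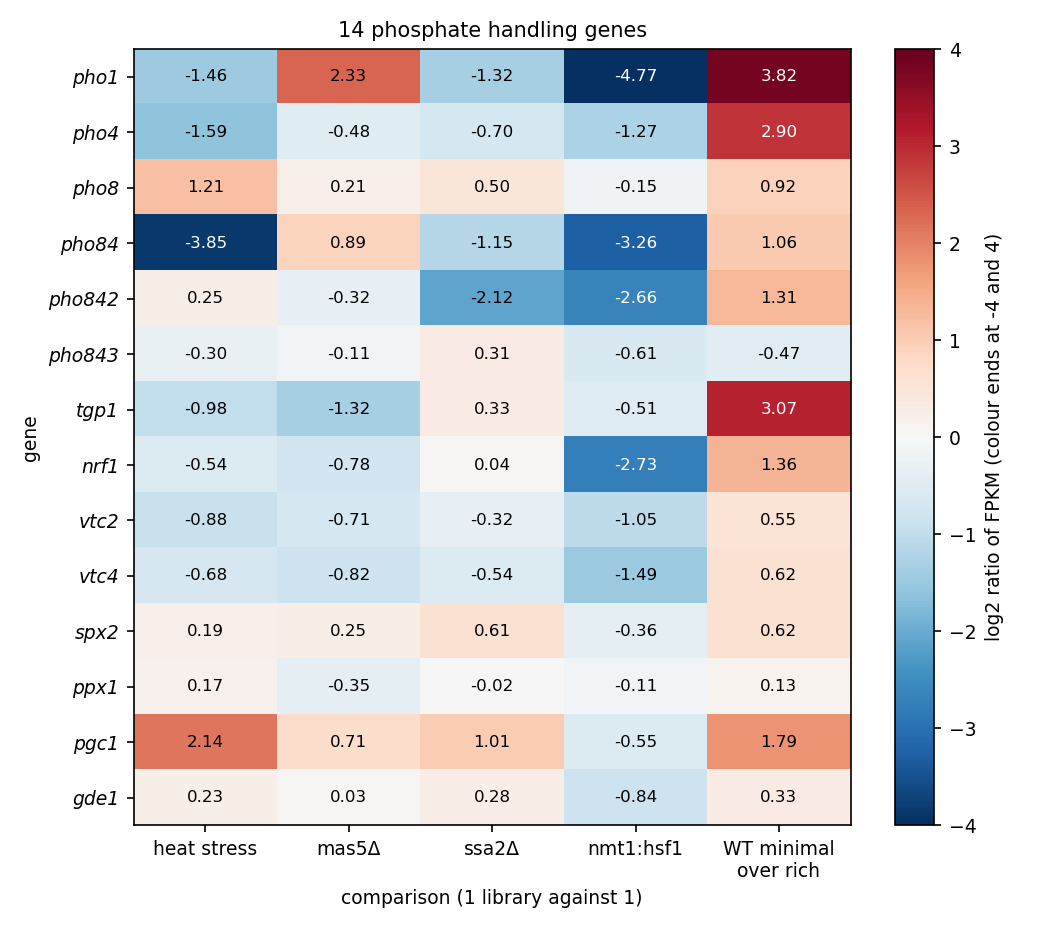
The grid gives the log2 ratio of FPKM of 14 phosphate handling genes (rows) in 5 comparisons (columns), each of 1 library against 1, with blue for lower and red for higher values. The *nmt1:hsf1* column is below 0 in all 14 rows, and the column of minimal over rich medium is above 0 in 13. Both columns use the wild type library of minimal medium, so a high value there enters both and they are not separate patterns.

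Genes of inositol pyrophosphate metabolism and other regulators of the pathway were counted apart, 9 in all with *pho7* among them. In heat, *mas5Δ* cells and *ssa2Δ* cells 0 of 9 were past 2-fold, with medians of -0.28, -0.20 and 0.12, beside 24.4%, 12.4% and 15% of all genes past 2-fold in either direction. The highest ratio in heat was that of *pqr1*, a ubiquitin ligase gene that limits phosphate transporters, at 0.73, and *pho7* was the lowest. In *mas5Δ* cells *asp1*, which encodes a kinase and pyrophosphatase of inositol pyrophosphates, was the highest at 0.28 and *ipk1*, an inositol phosphate kinase gene, the lowest at -0.74. In *ssa2Δ* cells *ipk1* was the highest at 0.48 and *arg82*, the inositol polyphosphate multikinase gene, the lowest at -0.87.

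In *nmt1:hsf1* cells 3 of these 9 were past 2-fold lower and 0 higher, with a median of -0.91, beside 16.7% of all genes lower, 27.1% higher and a median of 0.09. The lower genes were *arg82* at -1.56, the pyrophosphatase gene *siw14* at -1.36 and *asp1* at -1.09. All 9 were below 0, and *csk1*, which encodes a kinase that activates cyclin-dependent kinases, was the highest at -0.11. Between minimal and rich medium 1 of 9 was higher, *asp1* at 1.03, and 0 were lower, beside 9.52% of all genes higher, with *arg82* the lowest at -0.84 and a median of 0.21. Centring or a pseudocount of 1 FPKM left 0 of 9 past 2-fold. *asp1* was listed in a locus with 6 genes.

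Of 15 genes for 3′ processing, termination and decay of these lncRNAs, 0 were past 2-fold in heat, *mas5Δ* cells or *ssa2Δ* cells, with medians of -0.16, 0.01 and -0.03, beside the same shares of all genes. The lowest ratio in heat was that of *seb1*, a termination factor gene, at -0.80. Their ratios lay between -0.49 for *ssu72*, which encodes a phosphatase of the RNA polymerase II tail, and 0.45 for *red1*, of nuclear RNA elimination, in *mas5Δ* cells. In *ssa2Δ* cells the same genes stood at the ends, *ssu72* at -0.75 and *red1* at 0.30.

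In *nmt1:hsf1* cells 3 of the 15 were past 2-fold higher and 2 lower, with a median of 0.01, beside 27.1% of all genes higher and 16.7% lower. These shares are close to or below those of all genes. The higher genes were *mmi1*, an RNA-binding protein gene of meiotic transcript elimination, at 2.11, the termination factor gene *rhn1* at 1.63 and the exosome nuclease gene *rrp6* at 1.15. The lowest was *ssu72* at -1.28. *mmi1* had 104 FPKM in *nmt1:hsf1* cells and 24.0 FPKM in wild type cells. Between media 1 of 15 was past 2-fold higher and 0 lower, beside 9.52% of all genes higher and 6.47% lower. It was *swd22*, of the cleavage and polyadenylation factor, at 1.28, listed in a locus with 5 genes. *seb1* was the lowest at -0.52.

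The genes most like each member were found by the root mean square difference of log2 ratios over the 5 comparisons, among 4812 genes that averaged at least 10 FPKM in each. The comparisons share wild type libraries, so likeness is a description. Likeness to *pho84* rests in part on the heat ratio by which it was chosen. For *pho1* the nearest genes were distant: the lncRNA gene *rse1* at 1.38, *lip5* at 1.53, SPNCRNA.875 at 1.57, the glucose transporter gene *ght5* at 1.64 and SPBC1604.04 at 1.65. *ght5* was also high in *mas5Δ* cells, at a log2 ratio of 3.23. For *pho84* they included the hexose transporter gene *ght8* at 0.80, the lncRNA gene *omt3* at 0.90, *pxl1* at 1.22 and *sam1* at 1.23.

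For *tgp1* the nearest genes were *thi9*, a thiamine transporter gene, at 0.52, *pho4* at 0.74, SPCC162.03 at 0.76, *shm1* at 0.78 and the thiamine synthesis gene *thi4* at 0.84. *thi9* had log2 ratios of 3.74 between minimal and rich medium and -0.44 in *nmt1:hsf1* cells, beside 3.07 and -0.51 for *tgp1*. For *pho7*, which moved little, they were *dph4* at 0.08, SPCC1259.08 at 0.10, *suc1* at 0.11, *fcf2* at 0.11 and SPCC18.02 at 0.12. Among the members themselves, *tgp1* and *pho7* differed least, by 1.58, and *pho1* and *pho84* by 1.88, while *pho1* and *tgp1* differed by 2.64.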

How the data were processed

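Polyadenylated RNA of 6 cultures was sequenced in single end reads, per the study's methods. The authors mapped reads with TopHat and computed FPKM with Cuffdiff in Galaxy, separately for each of 4 pairs of libraries, and deposited these tables. Tool versions and the genome build are not given in the sources used here. Of 7008 genes listed, 6843 matched identifiers of RefSeq assembly ASM294v3, and 6842 of their deposited loci overlapped the reference gene. Of 2253 matched genes alone in their locus, 1458 had the same first base and 1391 the same last base. Coordinates were therefore compared directly, and 4705 genes share a locus with another gene.

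The deposited columns of the authors' fold changes, test statistics, p-values and q-values were not used. Whole reads could not be recovered from the FPKM, which leaves depth and counting error unknown. Sums of FPKM per library lay between 764347 and 1081090.

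Log2 ratios were computed from the FPKM of genes above 0 in both libraries, with no pseudocount, in Python 3.11.15, numpy 2.4.6 and pandas 2.3.3, and counted past 2-fold, the study's threshold. The ratio of minimal to rich medium used the rich medium value of the heat table. The median over genes averaging at least 1 FPKM was 0.01 in heat, 0.04 in *mas5Δ* cells, 0.05 in *ssa2Δ* cells, 0.09 in *nmt1:hsf1* cells and 0.13 between media. The procedure was tested on simulated data, which cannot show how far cultures of 1 condition vary. With 1 library per condition no p-value was computed, and fewer cells expressing a gene cannot be told apart from less RNA per cell.

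The members and lists were chosen with earlier results of these data known. The genes named were the 4 members, the listed genes past 2-fold or at either end of a list, all genes in or next to a member's locus, the 5 genes most like each member, and *mas5*, *ssa2*, *hsf1* and *nmt1* as checks; *vtc4*, *pho842* and *pho843* were in part named after their values were seen. Symbols *vtc1* and *xpr1* of the list did not match as primary names. Some genes that this rule would name are not reported here. Alternatives were pseudocounts of 0.1 and 1 FPKM, centring on the median, thresholds of 1.5-fold and 3-fold, means of at least 1 and 10 FPKM, the table used for rich medium and another measure of likeness.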

Additional observations from a re-analysis of the deposited data

Results flagged for a closer look

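*pho1*, *pho84* and *tgp1* each stood on opposite sides of the shared wild type library in the chaperone deletions. The log2 ratio of *pho1* was 2.33 in *mas5Δ* cells and -1.32 in *ssa2Δ* cells. That of *pho84* was 0.89 in *mas5Δ* cells and -1.15 in *ssa2Δ* cells. *tgp1* had -1.32 in *mas5Δ* cells and 0.33 in *ssa2Δ* cells. With 1 library each, the difference between the deletions was not tested. Of 6402 genes with a ratio in both deletions, 1650 (25.8%) had opposite signs.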

How the results depend on the processing

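No paired analysis was possible because each condition has 1 library and the labels give no shared replicate numbers. With no replicate error, a log2 ratio was taken to hold where it stayed on the same side of 2-fold and moved by less than 1.5-fold, and a count where it stayed within 1.5 times. Of 72 recomputed log2 ratios of the 4 genes 67 held, but most came from settings that could move them little. Pseudocounts of 0.1 and 1 FPKM, with 20 ratios each that all held, moved them by at most 0.12. Centring, with 19 held and 1 moved, shifted them by at most 0.13. When *nmt1:hsf1* cells were set against the rich medium library, 1 held and 3 moved. The total includes the heat ratio by which *pho84* was chosen. Between media *pho84* fell short of 2-fold after centring (0.93) and with the rich medium value of the *mas5Δ* table (0.89). Alternatives added after the data were seen were the ratio of *nmt1:hsf1* cells to the rich medium library, which gave -0.96 for *pho1*, -2.20 for *pho84* and 2.56 for *tgp1*, and the counts without members or with genes alone in their locus.

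Counts are given in the order heat, *mas5Δ*, *ssa2Δ*, *nmt1:hsf1* and minimal over rich medium. Of phosphate handling genes 5, 2, 4, 7 and 7 were past 2-fold. At 1.5-fold 8 were in heat and 7 in *mas5Δ* cells, and at 3-fold 3, 1, 1, 4 and 4. Without the 3 members they were 3 in heat, 0 in *mas5Δ* cells, 2 in *ssa2Δ* cells and 4 between media, and among genes alone in their locus 2 in heat and 4 in *nmt1:hsf1* cells.

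Regulators past 2-fold numbered 0, 0, 0, 3 and 1, and 1, 1, 1, 5 and 2 at 1.5-fold. At 3-fold they were 0 in *nmt1:hsf1* cells and 0 between media, after centring 5 and 0, and with a pseudocount of 1 FPKM 0 between media. Of termination genes 5 in *nmt1:hsf1* cells and 1 between media were past 2-fold. At 1.5-fold 2 were in heat, 1 in *ssa2Δ* cells, 8 in *nmt1:hsf1* cells and 2 between media, and at 3-fold 2 in *nmt1:hsf1* cells and 0 between media.

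Over all genes 1569, 802, 965, 2775 and 1020 were past 2-fold, and 725, 329, 494, 1590 and 423 past 3-fold. At 1.5-fold they were 2898 in heat, 1863 in *mas5Δ* cells, 2004 in *ssa2Δ* cells and 2248 between media. With a mean of at least 10 FPKM, 397 were past 2-fold in *mas5Δ* cells, 532 in *ssa2Δ* cells and 589 between media. By the largest single difference, 3 of the 5 genes most like *pho1*, 3 of those most like *pho84* and 2 of those most like *tgp1* were kept, and with a mean of at least 1 FPKM 1 for *pho84*.

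The main limits are single libraries, unknown depth, a *pho1* locus that includes nc-pho1, bases shared by *pho84* and *prt2*, and a medium comparison across tables.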
